A study of Mus musculus with 3 samples.

Results

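The SLC15 family was described here through its 4 peptide and histidine transporter genes, Slc15a1, Slc15a2, Slc15a3 and Slc15a4, out of 50600 genes in the deposited tables. The genes were found by symbol. The family was chosen from the difference in Slc15a2 among the libraries, so the values of Slc15a2 are given as a description with no test. The other 3 members entered by family name, and whether they shared that difference was tested. RNA came from primary mouse T cells of strain C57BL/6NJ, in 3 libraries that form 1 group and carry the biological replicate numbers 2, 3 and 4. The labels give no treatment, sex or age (stage and age are entered as unknown, sex as not collected), and they name a differentiation protocol for CD4+ T cells. The alignment names in the file headers add the words Th0, activated and 0 h. The labels list a biosample for each library but the same donor identifier for all 3, so they do not tell how many animals were used, and the p-values below measure the spread among these libraries.

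SLC15 proteins are proton-coupled carriers that use the proton gradient across a membrane to bring in short peptides and drugs that resemble them. Slc15a1 encodes PEPT1, the high-capacity carrier of the intestinal brush border, and Slc15a2 encodes PEPT2, the high-affinity carrier known from kidney tubule and choroid plexus. Slc15a3 and Slc15a4 encode PHT2 and PHT1, carriers of endosomes and lysosomes that also move histidine. PHT1 is best known in B cells and plasmacytoid dendritic cells, where it is needed for responses of the nucleic acid sensors TLR7 and TLR9.

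Gene counts summed to between 28340521 (replicate 4) and 59698913 (replicate 3) per library. The cells carried T cell transcripts at high level in all libraries, with Trac, the T cell receptor α constant gene, at 3374 ± 63.1 TPM and the coreceptor gene Cd4 at 1018, 1067 and 1048 TPM in replicates 2, 3 and 4. TPM are counts divided by exon length and scaled to a common total. Replicate 2 stood apart in sex-linked genes: Xist, the RNA of the inactive X chromosome, was at 151, 0.221 and 0.399 TPM in replicates 2, 3 and 4, and Ddx3y of the Y chromosome at 0.248, 80.0 and 72.3 TPM. A single animal does not give both patterns, so replicate 2 and the other 2 libraries did not come from 1 and the same animal, whereas for replicates 3 and 4 this cannot be told from these genes. Replicate 2 is also the library in which Slc15a2 was low.

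The bases before the RefSeq start sites of the plasma membrane carriers are shown because Slc15a2 is the member whose transcript differed among libraries and Slc15a1 is its nearest relative in function. They cover 250 bases up to the start, in the direction of transcription, on GRCm38.p6 (mm10), from chr16:36784963-36785212 and chr14:121505255-121505504, both on the minus strand. Capitals mark the GC box GGGCGG on either strand.
Slc15a2: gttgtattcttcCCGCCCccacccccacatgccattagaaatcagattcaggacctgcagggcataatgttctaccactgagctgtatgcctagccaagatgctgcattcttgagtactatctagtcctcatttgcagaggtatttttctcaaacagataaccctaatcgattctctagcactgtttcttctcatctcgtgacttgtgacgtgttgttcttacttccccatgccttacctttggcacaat
Slc15a1: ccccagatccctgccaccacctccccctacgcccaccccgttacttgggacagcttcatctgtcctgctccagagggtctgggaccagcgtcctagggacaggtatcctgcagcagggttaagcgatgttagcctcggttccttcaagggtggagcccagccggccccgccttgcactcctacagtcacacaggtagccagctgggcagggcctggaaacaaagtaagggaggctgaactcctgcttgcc

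The Slc15a2 window had a GC content of 45.2% and 4 CpG, and the Slc15a1 window 62.0% and 7 CpG, against medians of 52.4% and 6 over 32851 promoter windows of this length. The corresponding Slc15a4 window, which overlaps annotated exons of other Slc15a4 transcripts and is not printed, had 62.8% GC and 17 CpG. A GC box was found once in the Slc15a2 window, 2 times in that of Slc15a4 and not in that of Slc15a1, and 32.7% of all windows hold one. None of these 3 windows held CCAAT (33.8% of all windows), TATAAA (12.4%) or CACGTG (6.02%) on either strand. These are matches of letters, not sites of binding. Promoters of 3 of the 4 members were in the table used.

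Slc15a2 was the member that separated the libraries. Slc15a2 (ENSMUSG00000022899.8, mm10 chromosome 16, 36750178 to 36784962, minus strand) was counted 126 times in replicate 2, against 4344 and 1514 times in replicates 3 and 4. After correction for length and depth this was 1.30 TPM in replicate 2, 35.5 TPM in replicate 3 and 25.8 TPM in replicate 4. Replicate 2 was low and the other 2 libraries were high, and the mean of 20.9 ± 17.6 TPM (SD, n = 3) lay near none of them. In bulk RNA, fewer cells expressing a gene and less RNA per cell cannot be told apart.

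The ratio of TMM-scaled counts of Slc15a2 was 27.7 for replicate 3 over replicate 2, with a 95% exact counting interval of 23.2 to 33.4. Replicate 4 over replicate 2 gave 20.5 (17.1 to 24.8). Between the 2 libraries with high values the ratio was much smaller, 0.739 for replicate 4 over replicate 3 (0.696 to 0.784). These intervals cover counting error only. The range among libraries, taken as the highest minus the lowest log2 CPM, was 4.77. Of the 13498 genes tested, 11 had a larger one, while the median gene of comparable count (within 2-fold) had a range of 0.13. Slc15a2 was chosen for this difference, so its high place among all genes is a description and not a test. Without replicate 2 the range of Slc15a2 was 0.44. The sex-linked genes above moved with the same library, with a median range of 8.16 over 5 genes, and their part in the Slc15a2 difference was not tested.

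**Figure D1:**
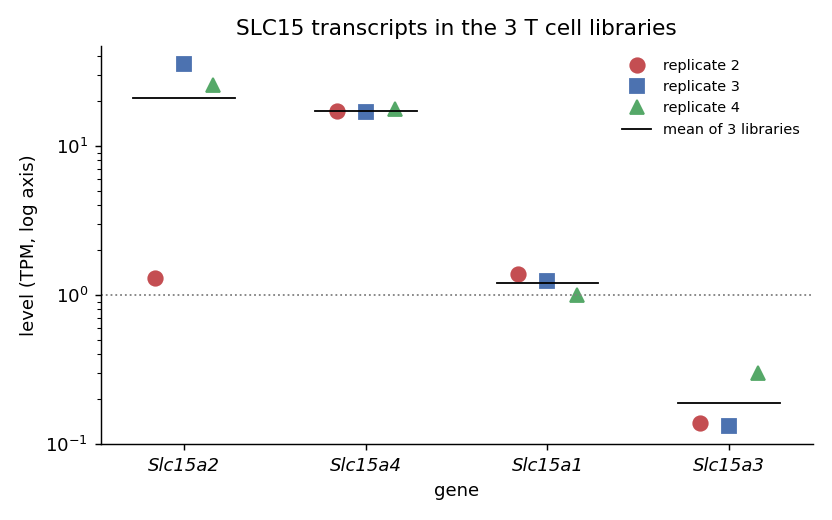
Levels of the 4 SLC15 genes in each library, as TPM on a log axis; points are libraries, bars are means over 3 libraries and the dotted line marks 1 TPM. Slc15a2 was at 1.30 TPM in replicate 2, against 35.5 and 25.8 TPM in replicates 3 and 4, while the Slc15a4 points lie between 16.8 and 17.6 TPM.

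Slc15a1, the other carrier of the plasma membrane, was low in every library and did not share the difference. Slc15a1 (ENSMUSG00000025557.9, chromosome 14, 121459621 to 121505254, minus strand) had 57, 64 and 25 counts in replicates 2, 3 and 4, or 1.39, 1.23 and 1.00 TPM. The library that was lowest for Slc15a2 was the highest for Slc15a1. Its range among libraries was 0.40 on the log2 scale, below the median of 0.59 for genes of comparable count, and it did not vary beyond its abundance class (edgeR goodness of fit, unadjusted p = 0.774, adjusted p = 1). The ratio of replicate 3 over replicate 2 was 0.903 (0.622 to 1.31) and that of replicate 4 over replicate 2 was 0.748 (0.448 to 1.22). The upper bounds lie far below the Slc15a2 ratios for the same libraries.

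Slc15a4, the gene of the lysosomal carrier PHT1, was the steadiest member. Slc15a4 (ENSMUSG00000029416.17, chromosome 5, 127595664 to 127632897, minus strand) had 1202, 1490 and 746 counts in replicates 2, 3 and 4, or 17.2, 16.8 and 17.6 TPM. The mean was 17.2 ± 0.383 TPM (SD, n = 3), a level above that of 32.1% of protein-coding genes detected in every library. Its log2 range was 0.09, and 81.0% of tested genes had a larger one. The goodness of fit gave an unadjusted p of 0.869 and an adjusted p of 1 in edgeR. The ratio was 0.997 for replicate 3 over replicate 2 (0.924 to 1.08) and 1.06 for replicate 4 over replicate 2 (0.965 to 1.16). At this depth a difference of the size seen in Slc15a2 would lie well outside those intervals.

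Slc15a3, the gene of the lysosomal carrier PHT2, was close to the limit of counting. Slc15a3 (ENSMUSG00000024737.2, chromosome 19, 10839727 to 10859362, plus strand) had 10, 12 and 13 counts in replicates 2, 3 and 4, or 0.138, 0.131 and 0.297 TPM. Replicate 4 was nominally the highest, and replicates 2 and 3 lay together. The range of 1.04 on the log2 scale was near the 0.95 of the median gene of comparable count (edgeR goodness of fit, unadjusted p = 0.28, adjusted p = 1). The ratios were 0.965 for replicate 3 over replicate 2 (0.382 to 2.49) and 2.22 for replicate 4 over replicate 2 (0.898 to 5.65). With so few counts a difference of a few fold was not detectable, but both upper bounds stay below the lower bounds of Slc15a2, 23.2 and 17.1. The 3' end of Slc15a3 overlaps Tmem132a on the opposite strand, and the authors counted by strand.

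**Figure D2:**
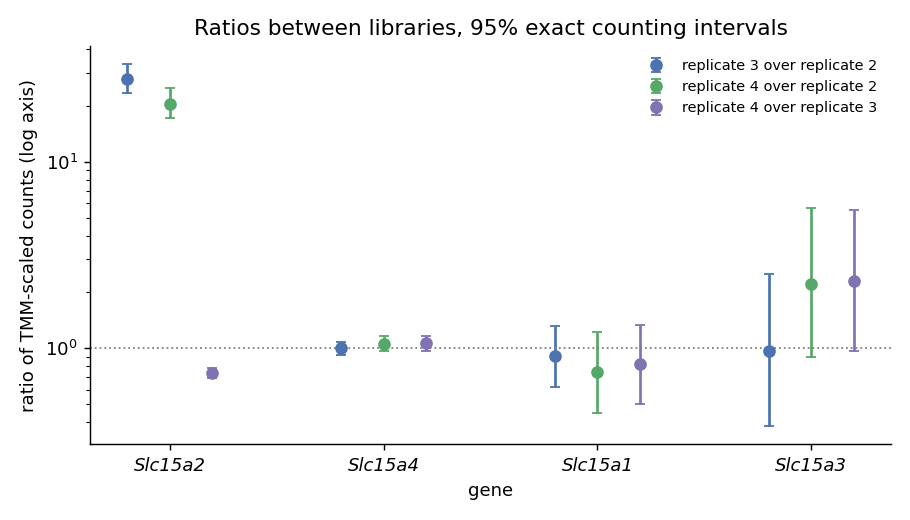
Ratios of TMM-scaled counts between pairs of libraries for each SLC15 gene, on a log axis, with 95% exact counting intervals as bars; the dotted line is a ratio of 1. The Slc15a2 ratios over replicate 2 are 27.7 and 20.5, while the intervals of Slc15a4, Slc15a1 and Slc15a3 for all 3 pairs include 1.

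By the test across all genes, 0 of the 3 members other than Slc15a2 varied among the libraries, where 72 of 13498 genes, 0.533%, did so at an adjusted p below 0.05 in edgeR's goodness of fit. At an unadjusted p below 0.05 the count of these members was also 0. The test asks whether a gene's counts scatter more among libraries than those of genes of like abundance. All 4 members had a mean count of at least 10 and were tested, Slc15a3 barely so, at 11.7. A 5th family gene, the orphan carrier gene Slc15a5, had 0 counts in all libraries, where 3 pooled counts would amount to 0.0257 TPM. For 34 of the 72 varying genes replicate 2 was the library farthest from the mean, and in 20 of those 34 it was the low one. These counts were taken over all varying genes. Neither Slc15a2 nor the 5 sex-linked genes were left out. Replicate 4 was the farthest for 22 genes and replicate 3 for 16.

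**Figure D3:**
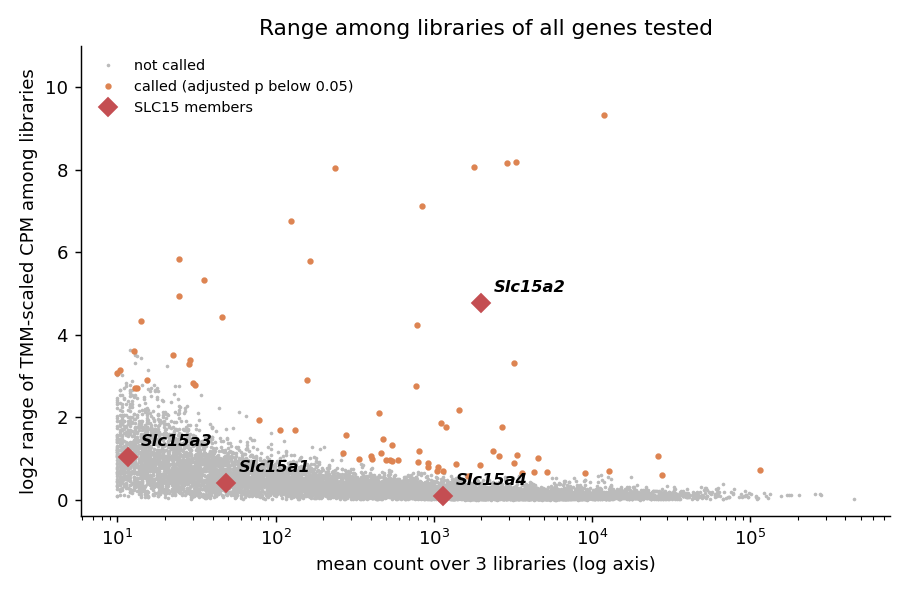
Range among libraries (highest minus lowest TMM-scaled log2 CPM) against mean count (log axis) for the 13498 genes tested; orange points passed an adjusted p of 0.05 and diamonds are the SLC15 genes. Slc15a2 lies at a range of 4.77 and the other 3 members lie within the grey cloud of genes that did not pass.

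The order of levels within the family therefore differed by library. In replicate 2 the order per length was Slc15a4, Slc15a1, Slc15a2 and Slc15a3, with Slc15a1 and Slc15a2 only 0.09 apart on the log2(TPM + 0.1) scale. The neighbours Slc15a1 and Slc15a2 were thus not separated in replicate 2. In replicates 3 and 4 Slc15a2 came first, followed by Slc15a4, Slc15a1 and Slc15a3. Slc15a2 made up 6.50% of the summed TPM of the 4 genes in replicate 2, 66.1% in replicate 3 and 57.7% in replicate 4. The summed level was 20.0, 53.7 and 44.7 TPM in replicates 2, 3 and 4. Without Slc15a2 it was 18.7, 18.2 and 18.9 TPM, so the remaining members added up to nearly the same level in each library.

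Among the members other than Slc15a2 the order was the same in every library. Slc15a4 exceeded Slc15a1 by 3.74 ± 0.24 and Slc15a3 by 5.95 ± 0.41 on the log2(TPM + 0.1) scale, and Slc15a1 exceeded Slc15a3 by 2.21 ± 0.64 (SD, n = 3). All 3 libraries gave each of these 3 differences the same sign. Flipping signs in every way (exact permutation test, two-sided) gave p = 0.25 for each, the smallest value 3 libraries can reach, and 0.25 after adjustment over the 3. The differences are larger than the spread between libraries, although no test of this size can pass 0.05. With 1 TPM in each library as the limit, 3 of the 4 members counted as detected, Slc15a1 by a narrow margin with 1.00 TPM in replicate 4. Merged exons are longer than single transcripts for most of the family, 7360 bases against 3994 for the longest coding transcript of Slc15a2, 5312 against 2732 for Slc15a4 and 5491 against 2345 for Slc15a3, but 3123 against 3121 for Slc15a1. With the transcript lengths, Slc15a1 was at 1.01, 0.896 and 0.731 TPM and 2 members counted as detected. Slc15a2 was then at 1.74 TPM in replicate 2, above Slc15a1, so the order of these 2 in that library depends on the length used, while the order in replicates 3 and 4 was as before.

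Genes next to the members on the chromosomes were read beside the background, in which 0.533% of all tested genes varied. Within 500 kb of Slc15a2, 6 other genes were tested and 0 varied past the 0.05 limit in edgeR. With so few genes, 0 is also what that share would give. By TMM-scaled log2 CPM, replicate 2 was nominally lowest for each of the 6 but Polq, which was lowest in replicate 4. For Golgb1 and Hcls1 the log2 ranges were only 0.06 and 0.02. How many of all tested genes were lowest in replicate 2 was not counted. The 3 tested genes whose ends lay closest to Slc15a2 were Ildr1, Iqcb1 and Cd86. Ildr1, a receptor gene of cell contacts, was at 1.33, 2.06 and 2.48 TPM in replicates 2, 3 and 4 (unadjusted p = 0.067, edgeR goodness of fit). Iqcb1, a gene of the primary cilium, was at 3.24, 4.83 and 4.19 TPM (unadjusted p = 0.0739, edgeR goodness of fit). Cd86, which encodes a costimulatory ligand of antigen-presenting cells, was at 5.33, 7.61 and 6.58 TPM (unadjusted p = 0.109, edgeR goodness of fit). Cd86 was picked out after its values were seen, Ildr1 and Iqcb1 as the nearest tested genes on each side.

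The ratios of these neighbours between libraries were far smaller than that of Slc15a2. Replicate 3 over replicate 2 was 1.58 for Ildr1 (1.19 to 2.11), 1.51 for Iqcb1 (1.29 to 1.79) and 1.45 for Cd86 (1.24 to 1.70), against 27.7 for Slc15a2. Their counting intervals exclude 1, but the adjusted p of each was 1 in edgeR's goodness of fit, so the differences did not pass the test. Farther on the same side as Iqcb1, Golgb1, a Golgi matrix gene, was at 30.3, 30.3 and 30.7 TPM. Hcls1, which encodes an actin regulator of blood cells, was at 430, 428 and 421 TPM. The gap of 7.92 kb to Eaf2 is the shortest of any gene with counts, but Eaf2 had 7, 4 and 4 counts and was not tested.

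**Figure D4:**
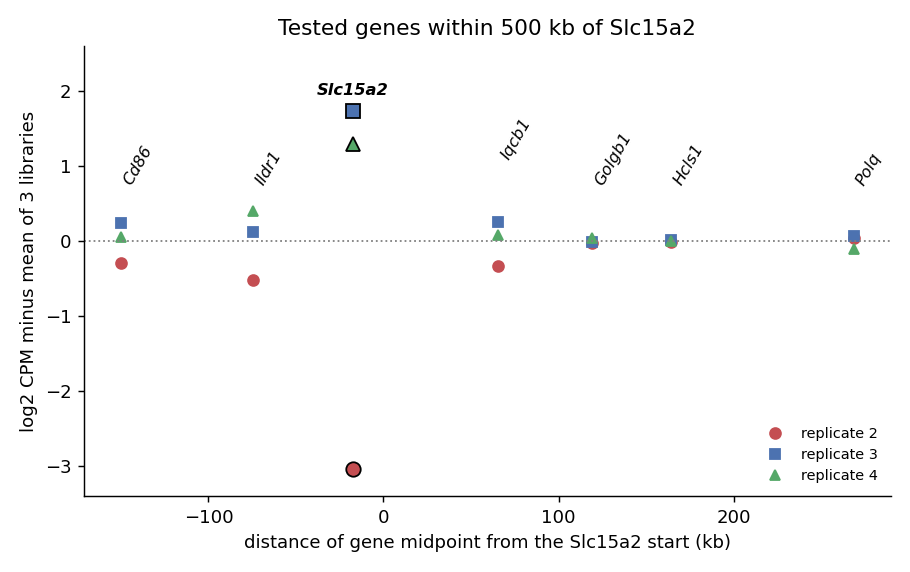
Log2 CPM of each tested gene within 500 kb of Slc15a2, minus its own mean over 3 libraries, against the distance of its midpoint from the Slc15a2 start in kb; symbols are libraries and outlined symbols are Slc15a2. Slc15a2 spreads over 4.77 units, while Ildr1, Iqcb1 and Cd86 spread over 0.93, 0.59 and 0.53.

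Calls near Slc15a1 and Slc15a3 are too few to compare with the 0.533% of all tested genes. Near Slc15a1, 0 of 7 tested genes varied. The flanking genes Stk24, a kinase gene, and Dock9, a gene of a Cdc42 exchange factor, had log2 ranges of 0.06 and 0.14. Near Slc15a3, 1 of 20 varied: Vwce, at 6.50, 9.59 and 12.6 TPM in replicates 2, 3 and 4 (edgeR goodness of fit, adjusted p = 0.0359), and that call was lost whichever library was left out, with total counts in place of TMM (adjusted p = 0.0625) and with every gene tested that had at least 1 count over the libraries together (0.054). The gene of the T cell surface protein CD6, 9.67 kb from Slc15a3, was at 672, 676 and 698 TPM, while Slc15a3 itself stayed below 0.3 TPM. Tmem132a on the other side was at 0.672, 0.915 and 1.36 TPM. No gene within 500 kb of Slc15a4 had enough counts to be tested, and the nearest tested genes, Tmem132b and Fzd10, lie 1803 and 968 kb away with mean levels below 0.5 TPM.

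The genes whose pattern over the 3 libraries was most like that of Slc15a2 were Crxos, the pseudogene Gm9522, Extl1, Gm15979 and the pseudogene Gm12188. Likeness was the Euclidean distance between log2 CPM centred on each gene's mean over 3 libraries, and these 5 lay at 1.01, 1.04, 1.17, 1.48 and 1.49. Slc15a3, Slc15a4 and Slc15a1 lay at 3.49, 3.70 and 3.94. Gm9522, on chromosome 15, had 3, 329 and 164 counts in replicates 2, 3 and 4. Extl1, a gene of the exostosin family of glycosyltransferases on chromosome 4, had 3, 60 and 22 counts. The other 3 had mean counts below 13. None of the 5 lies on chromosome 16 with Slc15a2, and a likeness over 3 libraries is a description only.

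Among genes of related functions, 1 call was too few to compare with the share over all tested genes. Of 84 genes found in 5 lists around peptide and histidine transport (85 were listed, and Tasl had no match by name), 68 were tested and 1 varied, beside the background of 0.533%. The median log2 range of the 68 was 0.13, against 0.19 over all tested genes, which were not matched for abundance. The gene that varied was Slc9a9, which encodes a sodium-proton exchanger of endosomes, at 8.65, 25.1 and 6.80 TPM in replicates 2, 3 and 4 (edgeR goodness of fit, adjusted p = 6.97e-24). Replicate 3 was the high library for Slc9a9, so its pattern was not that of Slc15a2, and the call was lost without replicate 3. The proton supply list held no other call, with the scaffold gene Slc9a3r1 at 616 ± 2.12 TPM and the proton pump genes Atp6ap1 at 177 ± 4.06 TPM and Atp6v0d1 at 115 ± 6.87 TPM. Slc9a3, the exchanger gene that works beside PEPT1 in gut, and Pdzk1, a scaffold of epithelial carriers, had 0 counts.

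Of 20 genes of enzymes that cut small peptides, the cargo of these carriers, 15 were detected. Of 15 tested, 0 varied, beside the background of 0.533%. With lists this short, 0 calls do not set them apart from genes in general. Dpp3, a dipeptidyl peptidase gene, was at 156 ± 1.72 TPM, Dpp9 at 127 ± 4.51 TPM and Cndp2, a cytosolic dipeptidase gene, at 112 ± 7.38 TPM. The membrane and serum dipeptidase genes Dpep1, Dpep2, Dpep3 and Cndp1 had 0 counts. In the list of histidine handling 0 of 9 tested genes varied, beside the same background, and 7 of 15 were detected. Carns1, the gene of carnosine synthase, which joins histidine to β-alanine, was at 133, 104 and 114 TPM in replicates 2, 3 and 4. The histidyl-tRNA synthetase gene Hars was at 114 ± 1.36 TPM and Slc3a2, the heavy chain gene of large amino acid carriers, at 102 ± 3.60 TPM. Hal, which opens the breakdown of histidine, stayed below 1 TPM.

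Genes of endolysosomal sensing were present in part. The list also holds signalling genes that are not particular to PHT1, and Tasl, which had no match by name, could not be assessed. Of 15 genes found, 11 were detected and 0 of 13 tested varied, beside the background of 0.533%. Irf3, of an interferon-inducing factor, was at 235 ± 12.4 TPM, the kinase gene Irak1 at 134 ± 7.63 TPM and the adaptor gene Myd88 at 128 ± 3.53 TPM. The receptor gene Tlr7 was at 9.54, 7.02 and 6.18 TPM in replicates 2, 3 and 4. Irf5, the factor that acts below PHT1 and TLR7, was at 2.98, 5.38 and 4.36 TPM. Tlr9 was at 1.16, 0.570 and 0.288 TPM, and Tlr8 had 0 counts. The lysosomal mTORC1 platform, which PHT1 is known to influence in B cells, had all 16 genes detected and 0 varying, beside the same background. Lamtor2 was at 107 ± 8.34 TPM, Flcn at 84.0 ± 6.63 TPM and Lamtor5 at 81.9 ± 4.45 TPM.

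**Figure D5:**
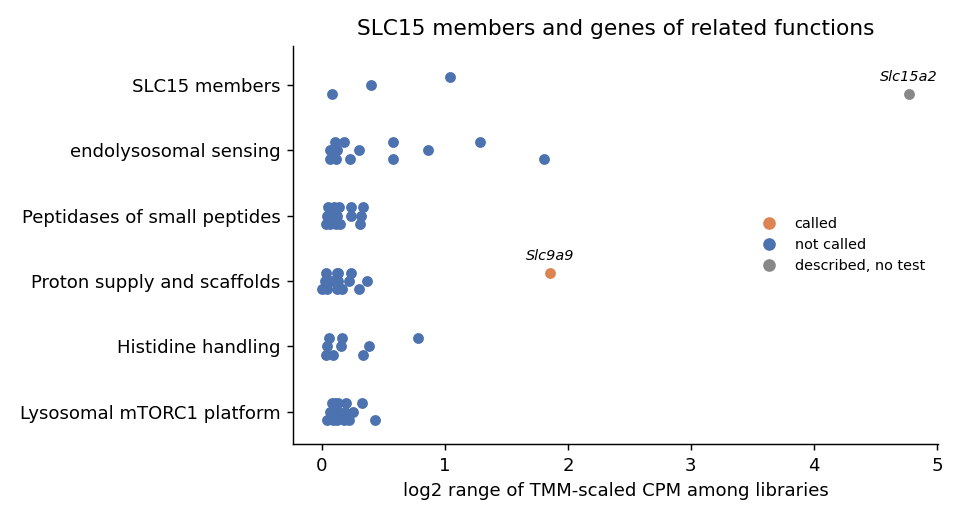
Range among libraries (log2 CPM) of each tested SLC15 gene and of each tested gene in the 5 related lists; each point is a gene, orange marks an adjusted p below 0.05 and grey marks Slc15a2, for which no test is given. Slc9a9, at 1.86, is the called gene of the lists.

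Cells that use these carriers elsewhere left few transcripts. Summed over 8 B cell markers the level was 48.6, 56.4 and 38.6 TPM in replicates 2, 3 and 4, with 6 detected in every library. Of the 8, 0 varied, beside the background of 0.533%. Of 9 monocyte and macrophage markers 2 were detected, the summed level was 15.1, 16.4 and 16.3 TPM in replicates 2, 3 and 4, and the defining genes Cd14 and Fcgr1 were at 0 counts. Cd68 alone made up 13.3 ± 0.314 TPM of these sums (SD, n = 3). Among the low markers, Csf1r was at 0.0933, 0.480 and 0.334 TPM (edgeR goodness of fit, adjusted p = 0.813), Adgre1 at 0.117, 0.204 and 0.425 TPM and C1qb at 0, 0.331 and 0.461 TPM. Lyz2, at a mean of 1.75 ± 0.418 TPM, was like these 3 nominally lowest in replicate 2, and the part of such cells in the Slc15a2 difference was not tested. Of 7 plasmacytoid dendritic cell markers 3 were detected (Pacsin1, Ly6d and Irf8), with sums of 96.0, 97.1 and 92.5 TPM, of which Pacsin1 alone made up 80.6 ± 1.31 TPM. Siglech, a defining gene of those cells, had 8 counts in all and Klk1 had 0. None of 6 conventional dendritic cell markers was detected, with sums between 0.480 and 1.15 TPM and Xcr1 and Clec9a at 0 counts.

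Markers of gut and kidney epithelium, the tissues of PEPT1 and PEPT2, summed to 4.92, 4.20 and 4.61 TPM in replicates 2, 3 and 4. Epcam was detected, at 2.98 ± 0.113 TPM, and Krt8 and Lrp2 had 0 counts. None of the tested genes of these 5 marker lists varied, beside the background of 0.533% of all tested genes. The largest relative difference of a summed level between libraries, in conventional dendritic cell genes, was between 0.480 TPM in replicate 2 and 1.15 TPM in replicate 4. The CD8 lineage genes Cd8a and Cd8b1 summed to 36.8, 34.5 and 31.2 TPM.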

How the data were processed

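RNA from 3 libraries of primary mouse T cells (1 group) was analysed from the deposited gene tables. Per the file headers, the authors counted read pairs with featureCounts 1.4.6-p4 over exons of GENCODE M13 on mm10, both ends aligned, reverse strand, with no option set for reads that align to several places. The deposited counts are raw. The aligner's version is not given in the sources used here. Gene lengths are the merged exon lengths of the authors' tables.

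Computed here were TPM from counts and lengths, and log2 CPM with TMM scaling and a prior count of 2. Symbols were matched by Ensembl identifier (50376 of 50600 genes), and transcripts and exons come from GENCODE M21 (mm10). Whether counts varied beyond the abundance trend was tested in edgeR 4.0.16 (R 4.3.3): a negative binomial model with an intercept alone and trended dispersion was fitted to all genes whose counts averaged at least 10, and its goodness-of-fit p-values were adjusted by Benjamini-Hochberg, with a limit of 0.05. The test was checked on simulated data in which genes were lowered in a single library. It recovered 65% of 2-fold, 73.5% of 4-fold and 90.5% of 16-fold changes, so a gene that was not called may still vary. With no change simulated it made 0 calls, but the simulated counts were drawn at the fitted dispersion trend. This run therefore cannot show how often real genes that scatter off the trend are called. Ratios between libraries have 95% exact binomial intervals, and the floor is 3 counts. Promoter windows come from RefSeq on GRCm38.p6. Python 3.11.15, numpy 2.4.6, pandas 2.3.3, scipy 1.17.1 and matplotlib 3.10.9 were used.

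The members and lists were chosen with earlier results of these data known. Named were the members and Slc15a5, the 3 highest genes of each pathway list and every called one, the nearest tested genes beside each member and every called one within 500 kb, and the 5 genes most like Slc15a2. List genes named beyond these, Golgb1, Hcls1, Polq, Eaf2 and Cd86 were picked with their values in view. The alternatives comprised other scalings, count minimums, dispersion, prior counts, pseudocounts, thresholds, windows and each replicate left out. Transcript lengths, and ranges with a replicate left out, were added after seeing the data. The short text file deposited beside each table was not used.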

Additional observations from a re-analysis of the deposited data

How the results depend on the processing

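Of 142 alternative values, 121 stayed within the limits set for each result, 20 moved and 1 reversed. These limits allow some change of size. Slc15a1 minus Slc15a3 counted as kept at 0.89 with a pseudocount of 1, against 2.21 as reported. So did 2 members detected with transcript lengths, against 3 as reported. No paired comparison of groups was possible because there is a single group. The level differences between members were taken within each library. The adjusted p of Slc15a1, Slc15a3 and Slc15a4 stayed above 0.05 under each alternative in which they were tested; with a mean count of 50, Slc15a1 and Slc15a3 were not tested. The number of varying genes was 311 with a common dispersion and between 35 and 45 with a replicate left out. Varying list genes numbered 2 with a common dispersion and between 0 and 1 with a replicate left out, and near Slc15a3 0 remained without replicate 2, 3 or 4. Leaving out a replicate gave log2 ranges of 0.14 to 0.40 for Slc15a1, 0.44 to 4.77 for Slc15a2, 0.042 to 1.04 for Slc15a3 and 0.0040 to 0.086 for Slc15a4. The lowest came without replicate 2 for Slc15a2 and without replicate 4 for the others. The mean of Slc15a2 minus Slc15a4 was -0.67 on the log2(TPM + 0.1) scale, between -1.54 and 0.81 with a replicate left out, and it reversed to 0.81 without replicate 2, the library in which Slc15a2 was low. At 2 TPM, 1 member counted as detected. As CPM, with no length correction, means were 42.9 for Slc15a2, 0.290 for Slc15a3 and 25.5 for Slc15a4, and with the longest coding transcript as length TPM were 0.879 for Slc15a1, 0.322 for Slc15a3 and 24.4 for Slc15a4. The low counts of Slc15a3 limit what can be said of it.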
